A study of Mus musculus with 7 samples.

Results

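The genes described here are the ligands and receptors of 2 vessel signalling systems, the vascular endothelial growth factors (VEGFs) and the angiopoietins, in a wild-type mouse trigeminal ganglion. They are 10 of the 32285 gene rows of the count matrix: the VEGF family ligand genes Vegfa, Vegfb, Vegfc and Pgf, the angiopoietin ligand genes Angpt1 and Angpt2, the VEGF receptor genes Flt1, Kdr and Flt4, and the angiopoietin receptor gene Tek. The members were listed by name, not by their values. All 10 had UMIs (unique molecular identifiers, which mark single RNA molecules) in the ganglion, from 250 for Flt4 to 7779 for Vegfb over the cells that were kept.

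The study concerns the influence of sensory nerves on progenitor cells during tooth root growth. Its ganglion sample is 1 droplet single-cell RNA-seq library (10x Genomics) from wild-type mice at postnatal day 3.5. Neurons of this ganglion supply sensation to the face and teeth. The labels used here do not give the number of animals behind it. Another 6 bulk libraries, from molars at postnatal day 7.5 (3 controls, Fgfr2fl/fl, and 3 mutants, Gli1-CreER;Fgfr2fl/fl, all after tamoxifen, TMX) are not analysed here, so no genotypes were compared.

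VEGF ligands are secreted proteins that bind receptor tyrosine kinases on endothelial cells, the cells that line vessels, and drive their growth, survival and permeability. VEGF-A acts chiefly through the receptor encoded by Kdr, while the receptor encoded by Flt1 binds VEGF-A, VEGF-B and placental growth factor and is often described as a decoy for VEGF-A. The receptor encoded by Flt4 binds VEGF-C and is best known from lymphatic vessels. Angiopoietin 1 activates the receptor encoded by Tek, also called Tie2, and steadies vessels, whereas angiopoietin 2 can oppose it. In peripheral nerve and ganglion, vessels lie among neurons, glia and connective tissue, any of which may supply ligand.

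The library held 149040354 UMIs over 13065 barcodes. Barcodes with at least 1000 UMIs, at least 500 genes and at most 20% mitochondrial UMIs were kept, which left 9427 cells with a median of 10861 UMIs. The barcodes left out held between 0.613% and 3.1% of the UMIs of each member. Clusters of cells were named from marker genes, with the members kept out of the clustering, and a name such as endothelial-like means only that. The 14 named classes held 8208 cells, and 7 clusters with 1219 cells stayed unnamed. With 1 library there is no replicate error and no test, so every interval below is an exact 95% interval that covers counting error only. Where nothing was counted, the level said to be allowed is that of 3 counts (UMIs or cells). That level lies below the upper end of the exact interval.

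Sequences upstream of the receptor genes are given first, because these genes had their highest levels in 1 class of cells and because ETS factors, among them Erg, Fli1 and Ets1, are known regulators of endothelial genes. The core motif that ETS factors recognise is GGAA. The 250 bases before the RefSeq start (build GRCm38.p6) are printed 5′ to 3′ on the strand of each gene, at chr5:147726012-147726261 on the minus strand for Flt1, chr5:75978456-75978705 on the minus strand for Kdr and chr4:94739039-94739288 on the plus strand for Tek. Capitals mark each GGAA, or TTCC where the motif lies on the other strand.
Flt1: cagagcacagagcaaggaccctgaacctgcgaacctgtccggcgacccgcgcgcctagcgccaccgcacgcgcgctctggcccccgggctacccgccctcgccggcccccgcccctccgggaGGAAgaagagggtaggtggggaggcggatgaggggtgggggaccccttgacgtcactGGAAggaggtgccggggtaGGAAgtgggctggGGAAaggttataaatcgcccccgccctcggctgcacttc
Kdr: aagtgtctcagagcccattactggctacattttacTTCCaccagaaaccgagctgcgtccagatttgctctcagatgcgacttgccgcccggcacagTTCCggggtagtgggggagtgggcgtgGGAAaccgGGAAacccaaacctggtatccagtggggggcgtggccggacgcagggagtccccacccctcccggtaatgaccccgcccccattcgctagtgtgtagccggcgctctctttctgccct
Tek: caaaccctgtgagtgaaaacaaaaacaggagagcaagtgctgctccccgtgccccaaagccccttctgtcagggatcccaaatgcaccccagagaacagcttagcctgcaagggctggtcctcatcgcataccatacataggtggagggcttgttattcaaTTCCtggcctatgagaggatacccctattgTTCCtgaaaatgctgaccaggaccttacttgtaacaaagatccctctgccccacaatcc
Both strands were searched, and the window held 4 copies for Flt1, 4 for Kdr and 2 for Tek. The window of Flt4, which is not printed, held 2. Of 32851 windows of this length in the mouse table, 93.4% held at least 1 copy, 76.8% at least 2 and 33.4% at least 4, with a median of 3.00. These matches are a description of the letters and not binding sites. The table held 8 of the 10 members, and Angpt1 and Angpt2 were absent from it.

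In the GENCODE annotation of build GRCm38 (mm10) all 10 genes are protein-coding. The receptor genes lie at chr5:147561604-147726011 (Flt1, minus strand), chr5:75932827-75978458 (Kdr, minus), chr11:49609263-49652739 (Flt4, plus) and chr4:94739289-94874976 (Tek, plus). The VEGF ligand genes lie at chr17:46016993-46032369 (Vegfa, minus), chr19:6982473-6987651 (Vegfb, minus), chr8:54077606-54187096 (Vegfc, plus) and chr12:85166635-85177790 (Pgf, minus). Angpt1 lies at chr15:42424723-42676977 (minus) and overlaps Gm17473 on the other strand, which had 33 UMIs. Angpt2 lies at chr8:18690263-18741562 (minus) and overlaps Mcph1 on the other strand, which had 2176 UMIs. The labels do not say whether strand was used in counting, so UMIs of Angpt2 and Mcph1 may not be fully separated.

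Endothelial-like cells were the receptor cells of this library. All 4 receptor genes were higher there than in all other named cells together, by 106-fold for Flt4 to 449-fold for Flt1, and this class held 71.0% to 91.2% of each receptor's UMIs with 2.25% of all UMIs. Levels are given as CPM, a gene's UMIs in a class divided by all UMIs of that class and multiplied by 1000000. To be called higher, a gene needed 20 UMIs or more in all and a CPM ratio no smaller than 2 with its whole interval above 1. Lower meant a ratio of 0.5 or less with its interval below 1. Of 19690 genes with at least 20 UMIs, 10.8% were called higher in endothelial-like cells. The label fitted its markers: Pecam1, Cdh5, Cldn5 and the other 6 endothelial markers summed to 7336 CPM in these 277 cells, and in erythroid-like cells the median marker stood at 0.170% of its endothelial level.

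Flt1 had 1139 CPM in endothelial-like cells (1100 to 1178, 3321 UMIs) and 2.54 CPM in the other named cells, a ratio of 449 (400 to 505). Outside that class its CPM was 84.8 in mural-like cells, 5.88 in fibroblast- or perineurial-like cells, 4.35 in macrophage-like cells and 0 to 3.36 in the remaining 10 classes. No interval of another class reached the endothelial one. The mural ratio of 3.06 (2.35 to 3.91) was past the limit, but 43 of its 65 UMIs came from 1 of the 87 cells. Without that cell the level was 29.2 CPM and the ratio 1.05. The 11 mural-like cells with Flt1 also held endothelial markers at 961 CPM in sum (137 UMIs, with Ly6c1 alone at 0), against 592 CPM over all mural-like cells. The part of endothelial RNA in this value was not tested.

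Kdr had 571 CPM in endothelial-like cells (544 to 599, 1665 UMIs) and 1.60 CPM in the other cells, a ratio of 357 (308 to 415). The next class was central astrocyte-like, with 37.5 CPM (28.2 to 48.9), and the other 12 classes had 0.557 to 3.18 CPM. In the astrocyte-like class the 54 UMIs lay in 16 of 96 cells, 16 of these UMIs in 1 cell, and the ratio was 2.65 with that cell and 1.89 without it, at 26.6 CPM. These 16 cells held no UMI of Flt1, Flt4 or Tek, and 5 of the 9 endothelial markers (Pecam1, Cdh5, Cldn5, Emcn and Ly6c1) were at 0 in them. The Kdr call in this class was also lost with no cell filter (0.0731), with a stricter cell filter (0.0646) and at a finer clustering (0.0617).

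Flt4 was the least counted receptor gene, with 60.4 CPM in endothelial-like cells (51.8 to 70.0, 176 UMIs) and 0.567 CPM in the other cells, a ratio of 106 (80.4 to 142). It had no UMI in mural-like, macrophage-like, B lymphocyte-like, neutrophil- or monocyte-like or central astrocyte-like cells, and the floor of 3 counts allows up to 3.91 CPM in the mural-like class. Neuron-like cells, which are deep, held 12.1% of its UMIs at only 0.879 CPM (30 UMIs in 22 cells). Their level did not differ beyond its interval from that of fibroblast- or perineurial-like cells, at 0.846 CPM.

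Tek had 204 CPM in endothelial-like cells (188 to 221, 596 UMIs) and 1.33 CPM in the other cells, a ratio of 153 (129 to 183). Fibroblast- or perineurial-like cells came next by UMIs, with 13.3% of them at 4.54 CPM, and mural-like cells had 6.52 CPM on 5 UMIs. Within the fibroblast- or perineurial-like class the clusters ranged from 1.32 to 7.44 CPM. The 42 cells with Tek in the cluster at 7.44 CPM, a cluster led by Mfap4, Ccn3 and Fxyd5, also held endothelial markers at 667 CPM, none of the 9 at 0, and whether this bears on their Tek was not tested.

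**Figure D1:**
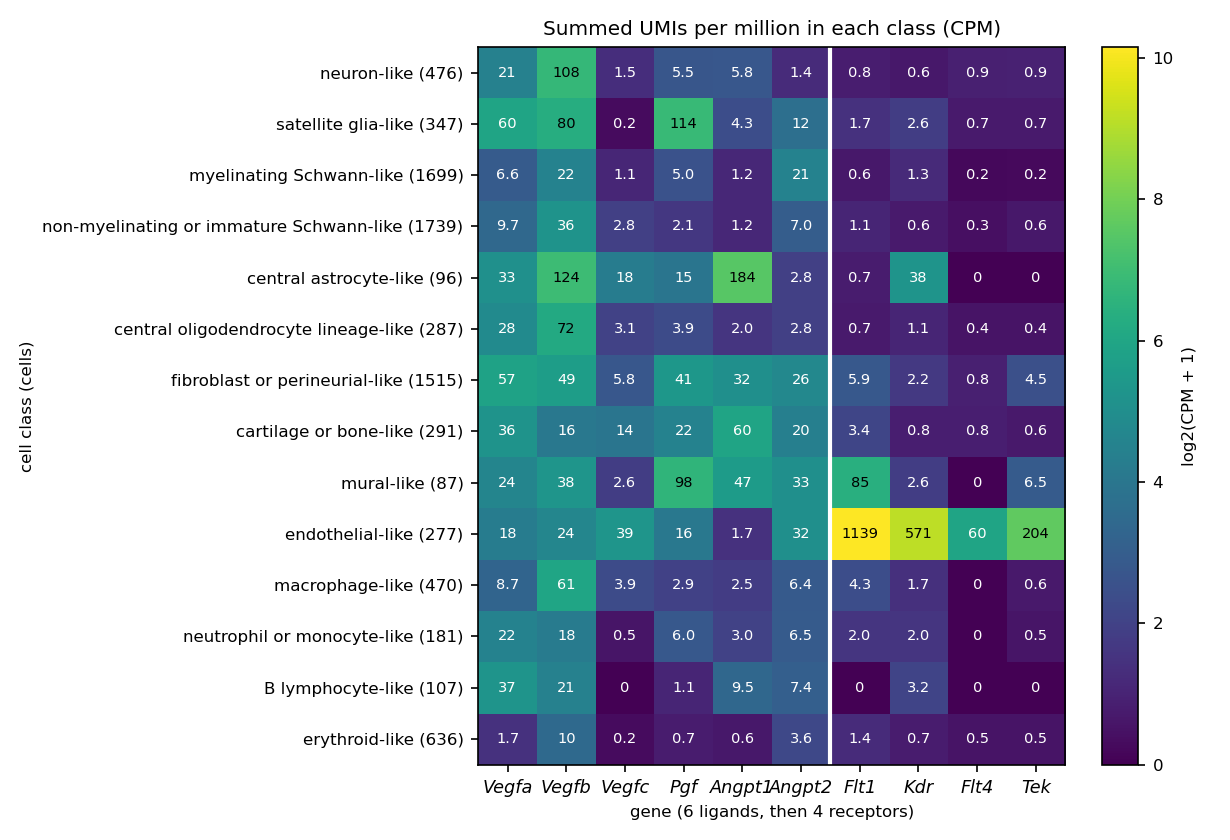
CPM of each member (columns, ligands left of the white line and receptors right of it) in each of the 14 classes (rows, with their number of cells), coloured by log2(CPM + 1), for 1 library. The 4 receptor columns peak in the endothelial-like row, while the ligand columns peak in the satellite glia-like (Vegfa, Pgf), central astrocyte-like (Vegfb, Angpt1), endothelial-like (Vegfc) and mural-like (Angpt2) rows.

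Shares of cells showed the same pattern at equal depth. Flt1 had a UMI in 95.7% of endothelial-like cells, Kdr in 88.1%, Tek in 63.9% and Flt4 in 33.6%, against 1.42%, 0.629%, 0.629% and 0.629% of erythroid-like cells, a type not expected to use these genes. The median depths were 6980 UMIs in endothelial-like and 10543.5 UMIs in erythroid-like cells. After every cell was thinned to 5000 UMIs, which left out 98 endothelial-like and 48 erythroid-like cells, the endothelial shares were 92.2% for Flt1 (87.2 to 95.7), 87.2% for Kdr (81.3 to 91.7), 59.2% for Tek (51.6 to 66.5) and 23.5% for Flt4 (17.5 to 30.4). The erythroid shares were then 0.510% for Flt1 and 0.340% for each of the other 3.

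Most endothelial-like cells showed several receptor genes at once. Among the 179 thinned cells, 91.1% had UMIs of at least 2 receptor genes (85.9 to 94.8), 50.8% of exactly 3 and 10.6% of all 4, while 1.12% had none. The share with at least 2 was 72.3% (66.2 to 77.9) when 242 cells were thinned to 2000 UMIs. Both the depth and the set of cells differ between these settings, and the part of each in the change was not tested. Flt1 was seen in 94.9% of cells with Kdr (90.1 to 97.8) and in 73.9% of those without (51.6 to 89.8), but at 2000 UMIs the shares were 85.1% (79.0 to 90.1) and 76.1% (64.1 to 85.7), intervals that overlap. Tek was seen in 21 of 42 cells with Flt4 (34.2% to 65.8%) and in 62.0% of cells without (53.4 to 70.2), intervals that do overlap.

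**Figure D2:**
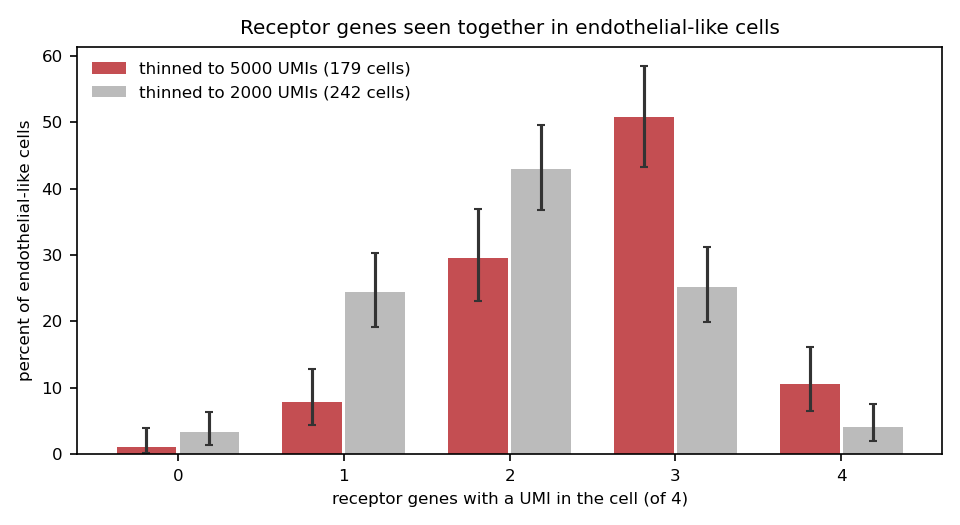
Percent of endothelial-like cells (vertical axis) by how many of the 4 receptor genes had a UMI (horizontal axis), after thinning to 5000 UMIs (red, 179 cells) or 2000 UMIs (grey, 242 cells), with exact binomial intervals. At 5000 UMIs the tallest bar is 3 genes, at 50.8%, and at 2000 UMIs the distribution lies lower.

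Most ligand UMIs lay in other cells than the receptors, and each ligand gene had its own set of classes. Connective tissue- or skeletal-like cells held the largest share of Vegfa (47.4%), Vegfc (42.3%), Pgf (50.4%), Angpt1 (64.3%) and Angpt2 (45.2%) with 22.1% of all UMIs, and neuron-like cells held 50.2% of Vegfb with 26.3%. Endothelial- and mural-like cells together, with 2.84% of all UMIs, held 1.36% to 7.68% of the UMIs of 5 ligands and 22.1% of Vegfc. Besides Vegfc, Pgf (5.80%) and Angpt2 (7.68%) were above their share of all UMIs. Vegfa (2.24%), Vegfb (1.36%) and Angpt1 (2.41%) were below it. In endothelial-like cells 2 of the 6 ligand genes, Vegfc and Angpt2, were called higher and 2, Vegfb (0.425) and Angpt1 (0.128), lower, where 17.4% of all genes were called lower.

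**Figure D3:**
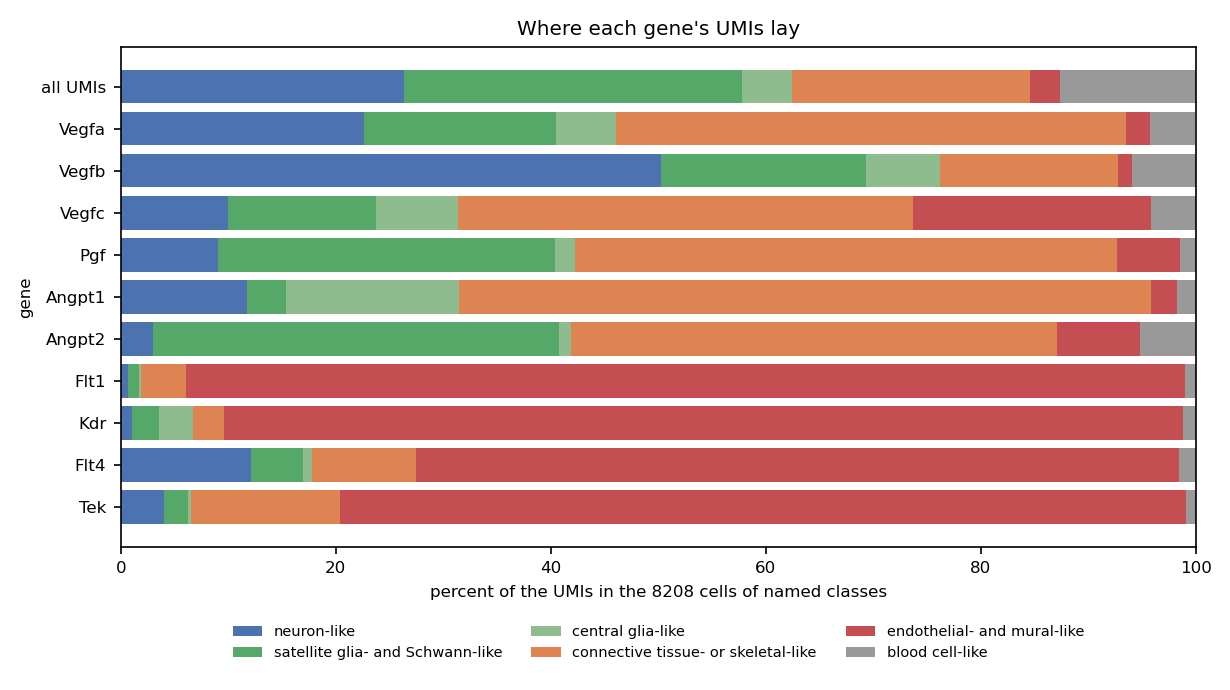
Percent of each gene's UMIs (horizontal axis) that lay in 6 groups of classes (colours), over the 8208 cells of named classes, with all UMIs on top for scale. The 4 receptor bars are mostly endothelial- and mural-like (71.0% to 92.9%), and the 6 ligand bars mostly are not.

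Vegfa, which encodes the main growth factor for blood vessels, was highest in satellite glia-like cells, the glia that wrap sensory neuron cell bodies. It had 59.8 CPM there (52.9 to 67.3, 275 UMIs) and the fibroblast- or perineurial-like class reached 56.9 CPM (53.8 to 60.1, 1277 UMIs), and the ratio of the 2 classes, 1.05 (0.920 to 1.20), included 1. Next came B lymphocyte-like (37.1 CPM), cartilage- or bone-like (36.1), central astrocyte-like (33.3), central oligodendrocyte lineage-like (28.0), mural-like (23.5) and neutrophil- or monocyte-like cells (21.5), and no step down this order from B lymphocyte-like to endothelial-like cells had an interval off 1. Neuron-like cells stood at 21.0 CPM (19.5 to 22.6, 717 UMIs), so that satellite glia-like cells exceeded them 2.85-fold (2.47 to 3.27) and fibroblast- or perineurial-like cells 2.70-fold (2.47 to 2.97). Endothelial-like cells had 18.2 CPM, both Schwann-like classes and macrophage-like cells 6.59 to 9.67, and erythroid-like cells 1.74. This order is of classes. The 4 fibroblast- or perineurial-like clusters ran from 28.6 to 79.1 CPM, the highest of them above the satellite glia-like level.

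Against all other named cells, Vegfa was called higher in satellite glia-like cells (2.59, 2.28 to 2.93) and in fibroblast- or perineurial-like cells (3.23, 3.00 to 3.47). A UMI was seen in 22.9% of satellite glia-like cells, 23.3% of fibroblast- or perineurial-like cells, 7.32% of neuron-like cells and 0.680% of erythroid-like cells thinned to 5000 UMIs. Unthinned, the shares were 42.9%, 46.0%, 54.6% and 2.20% at median depths of 12517, 14159, 83034 and 10543.5 UMIs. The higher unthinned share of neuron-like cells goes with their depth. In cells gated 1 by 1 on marker counts in place of clusters, the satellite glia ratio was 1.88, below the limit.

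Vegfb, whose product binds the Flt1 receptor, was the 1 ligand gene called higher in neuron-like cells, where 20.7% of all genes were. It had 108 CPM there (104 to 111, 3682 UMIs, or 7.74 UMIs per cell) against 38.1 CPM in the other cells, a ratio of 2.83 (2.70 to 2.96). Central astrocyte-like cells had 124 CPM (106 to 143), 1.14 times the neuronal level with an interval of 0.979 to 1.33. Levels were 79.8 CPM in satellite glia-like, 71.9 in central oligodendrocyte lineage-like and 61.4 in macrophage-like cells, of which the last 2 differed between their clusters (36.1 and 121 CPM, and 11.0 and 73.1 CPM). The fibroblast- or perineurial-like class had 49.4 CPM, so neurons exceeded it 2.19-fold (2.04 to 2.34). Endothelial-like cells had 24.3 CPM, and erythroid-like cells, at 10.1 CPM, were the lowest.

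Thinned to 5000 UMIs, 37.4% of neuron-like cells and 43.9% of central astrocyte-like cells had a UMI of Vegfb, against 3.06% of erythroid-like cells. Neuron-like cells were thus broad in Vegfb, yet low in most of the members. Of the 10 genes, 8 were called lower there (background 34.6%): Vegfc, Pgf, Angpt1, Angpt2 and the 4 receptor genes, while Vegfa had a ratio of 0.820. These ratios are per UMI. By UMIs per cell, where the deeper neurons weigh more, Vegfa (4.75), Vegfb (16.4) and Angpt1 (2.15) were all above the limit.

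Vegfc, a ligand of the Flt4 receptor known for lymphatic growth, was highest in the receptor cells themselves. Endothelial-like cells had 38.7 CPM (31.9 to 46.6, 113 UMIs), 12.1-fold (9.72 to 14.9) above the other cells. Central astrocyte-like cells had 18.0 CPM (26 UMIs, ratio 4.69) and cartilage- or bone-like cells 14.4 CPM (90 UMIs, ratio 4.14), and these 2 did not differ beyond their interval. The largest number of UMIs, 130, lay in fibroblast- or perineurial-like cells at 5.79 CPM. Levels were 1.52 CPM in neuron-like cells, satellite glia-like cells held 1 UMI and B lymphocyte-like cells none, which allows up to 3.18 CPM. A UMI was seen in 11.2% of thinned endothelial-like cells and 0.170% of erythroid-like cells.

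Pgf, the placental growth factor gene, whose product also binds the Flt1 receptor, was highest in satellite glia-like and mural-like cells. It had 114 CPM in the first (104 to 124, 522 UMIs) and 97.8 CPM in the second (76.9 to 123, 75 UMIs), levels that did not differ beyond their interval. Ratios to all other named cells were 9.09 (8.22 to 10.0) and 6.28 (4.92 to 7.91). Pgf was thus 6.20-fold (4.24 to 9.16) higher in mural-like cells, the cells that wrap vessels, than in endothelial-like cells (15.8 CPM). Thinned shares with a UMI were 39.5% in satellite glia-like, 32.8% in mural-like, 3.35% in endothelial-like and 0.510% in erythroid-like cells.

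Fibroblast- or perineurial-like cells held 43.8% of all Pgf UMIs at 40.7 CPM, and 800 of these 914 UMIs came from 1 of their 4 clusters, the one led by Mfap4, Ccn3 and Fxyd5. That cluster stood at 106 CPM and the other 3 at 3.86 to 10.9. In neuron-like cells Pgf had 5.51 CPM (ratio 0.278), and in both Schwann-like classes 2.15 and 4.97 CPM. Satellite glia-like and Schwann-like cells, all peripheral glia, were therefore far apart for this gene.

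Angpt1, which encodes the activating ligand of the Tek receptor, was nearly absent from the cells that carry Tek. Endothelial-like cells had 1.71 CPM (0.557 to 4.0) on 5 UMIs, and none of the 106 thinned endothelial-like cells with Tek had a UMI of Angpt1, which allows up to 2.83%. Mural-like cells had 47.0 CPM (32.9 to 65.0, 36 UMIs), 27.4-fold above endothelial-like cells with a wide interval (10.7 to 89.4).

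The highest Angpt1 level was in central astrocyte-like cells, at 184 CPM (162 to 207, 265 UMIs), 16.4-fold (14.3 to 18.7) above the other cells. Cartilage- or bone-like cells followed at 60.4 CPM (54.5 to 66.9) and did not differ beyond their interval from mural-like cells. Fibroblast- or perineurial-like cells were at 31.9 CPM with 42.1% of all UMIs. The clusters of the fibroblast- or perineurial-like class ran from 1.19 to 81.0 CPM. The level was 5.83 CPM (ratio 0.371) in neuron-like cells, 4.35 in satellite glia-like cells and, in the Schwann-like classes, 1.16 and 1.20. In thinned cells a UMI was seen in 56.1% of central astrocyte-like, 17.9% of mural-like and 0.559% of endothelial-like cells and in 0 of 588 erythroid-like cells, which allows up to 0.510%.

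Angpt2, whose product can oppose angiopoietin 1 at the Tek receptor, had flatter class levels over vessels, connective tissue and myelinating glia. Mural-like cells had 32.6 CPM (21.1 to 48.1, 25 UMIs), endothelial-like cells 32.2 (26.0 to 39.4, 94 UMIs), fibroblast- or perineurial-like cells 25.6 (575 UMIs) and myelinating Schwann-like cells 21.4 (409 UMIs). Mural-like and endothelial-like cells did not differ beyond their interval. Inside the fibroblast- or perineurial-like class the pattern was not flat, as its 4 clusters ran from 0.742 to 65.5 CPM. Of the 94 endothelial UMIs, 47 lay in 90 cells of clusters that were led by genes of other classes or had too few subtype markers, at 49.0 CPM, and the other 187 cells had 24.0 CPM (17.6 to 31.9), an interval that includes the myelinating Schwann level. All 4 classes were called higher than the rest, with ratios from 2.08 to 2.82, and endothelial-like cells still were without those 90 cells (2.09). Neuron-like cells were lowest, at 1.35 CPM, 11.6-fold below the other cells.

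Myelinating Schwann-like cells, which ensheathe large axons, held 26.4% of all Angpt2 UMIs, and their 3 clusters ran from 18.4 to 25.8 CPM. The non-myelinating or immature Schwann-like class had 6.99 CPM. Thinned shares were 10.3% in myelinating Schwann-like cells, 14.5% in endothelial-like cells, 14.9% in mural-like cells and 1.70% in erythroid-like cells. The Schwann ratio lay near the limit and was 1.37 per cell, 1.54 as a mean of single-cell CPM and 1.99 in gated cells. Mcph1, on the other strand, had its highest levels in other classes, at 25.7 CPM in non-myelinating or immature Schwann-like and 25.4 CPM in erythroid-like cells, and stood at 21.3 CPM in endothelial-like, 19.6 in mural-like and 13.3 in myelinating Schwann-like cells.

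Counted by class, the ligand genes called higher were set beside the share of all genes called. Mural-like cells had 3 of 6 (Pgf, Angpt1 and Angpt2; background 8.0%), and fibroblast- or perineurial-like cells 4 (Vegfa, Pgf, Angpt1 and Angpt2; background 16.0%). Central astrocyte-like cells had 3 (Vegfb, Vegfc and Angpt1; background 10.0%) and cartilage- or bone-like cells 2 (Vegfc and Angpt1; background 6.58%). Among peripheral glia, satellite glia-like cells had 2 (Vegfa and Pgf; background 7.79%) and myelinating Schwann-like cells 1 (Angpt2; background 5.55%).

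The fibroblast- or perineurial-like count depended on how the class was drawn. With a stricter cell filter Pgf (0.766) and Angpt2 (0.676) were no longer higher there, and at a finer clustering Angpt1 (1.37) was not either, with Pgf at 0.666 and Angpt2 at 0.576. Vegfa was called higher under both (2.62 and 2.54). The mural count was 2 when the cells with the top doublet scores were left out, with Angpt2 at 1.90. In cells gated singly Vegfb (1.80) and Vegfc (2.73) were not called in central astrocyte-like cells, nor Vegfc (1.88) in cartilage- or bone-like cells. By UMIs per cell Angpt2 was not called in mural-like (1.53) or endothelial-like cells (1.85).

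Within endothelial-like cells, clustered again alone, 187 of the 277 cells fell into clusters named arterial-like (33 cells), capillary-like (25), cycling-like (23), fenestrated-like (76) or venous-like (30), and no lymphatic-like cluster was named. The other 90 cells lay in 3 clusters with too few subtype markers or led by genes of other classes, among them haemoglobin and collagen genes, and they had less Flt1 (685 against 1361 CPM), Tek (115 against 248) and Vegfc (11.5 against 52.1) and more Pgf (ratio 2.23, 1.20 to 4.17) and Angpt2 (49.0 against 24.0). Doublets were in effect not removed, and their part in these clusters was not tested. Without these clusters the class ratios were 536 for Flt1 and 186 for Tek, and all 4 receptor genes were still called higher.

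Flt1 ran over a narrow range, from 936 CPM in cycling-like to 1639 CPM in fenestrated-like cells. Kdr was highest in fenestrated-like cells, at 891 CPM (816 to 970), 1.82-fold (1.64 to 2.02) above the other endothelial-like cells, and lowest in venous-like cells, at 380 CPM (314 to 455), a ratio of 0.640 (0.525 to 0.773). Both fell short of the 2-fold limit. Tek ran the other way, with 425 CPM in venous-like cells (355 to 505), 316 in arterial-like, 260 in capillary-like, 163 in cycling-like and 153 (123 to 188) in fenestrated-like cells. Its venous ratio was 2.38 (1.95 to 2.90), and 2.15 without the cell with the most UMIs. The cells on the other side of this ratio include the 90 of the unnamed clusters, which had 115 CPM of Tek. A ratio of Tek to the other named subtypes alone was not computed, so the call may depend on those 90 cells. Venous-like cells also held macrophage markers at 295 CPM in sum, 160 of it Mrc1. Of the 8 markers, 4 had no UMI there (C1qa, C1qb, Adgre1 and Aif1). The part of macrophage RNA in the Tek value was not tested. Flt4 lay between 35.1 CPM in arterial-like and 78.1 CPM in fenestrated-like cells, with overlapping intervals throughout.

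Vegfc was concentrated in arterial-like cells. Of the 113 endothelial UMIs, 63 lay in 19 of the 33 arterial-like cells, which gave 246 CPM (189 to 314), and the other subtypes had 15.5 to 45.8 CPM. The arterial ratio was 13.1 (8.87 to 19.3), and 12.6 without the cell with the most UMIs, while the interval of no other subtype reached the arterial one. Arterial-like cells also held mural markers, 10 of 11 with UMIs and 1006 CPM in sum with Kcnj8 at 0, against 16.4 to 301 CPM in the other subtypes and 10079 CPM in mural-like cells. Mural-like cells themselves had only 2 UMIs of Vegfc in 1 cell, 2.61 CPM. The gene was 1 of 10 members called higher in arterial-like cells, where 4.43% of 10554 genes were.

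In venous-like cells 2 members, Tek and Vegfa, were called higher, where 6.59% of genes were. Vegfa had 39.3 CPM there on 12 UMIs (ratio 2.50, and 2.18 with an interval from 0.930 without the top cell) and 0 of 25 capillary-like cells had a UMI of it, which allows up to 5.46 CPM. Capillary-like cells were lower than other endothelial-like cells for 4 members, Vegfa, Vegfc (0.418), Pgf (0.0958, 0.00237 to 0.562, on 1 UMI) and Angpt2 (0.347), where 11.7% of genes were called lower. Fenestrated-like cells were lower for 2, Vegfb (0.364) and Vegfc (0.426), where 9.92% were. Cycling-like cells were higher for 1, Vegfb (50.5 CPM, ratio 2.32), where 5.27% were called higher, and lower for 2, Vegfc (0.379) and Pgf (no UMI), where 5.82% were called lower. Apart from arterial Vegfc, these ligand values rest on at most 18 UMIs per gene and subtype.

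**Figure D4:**
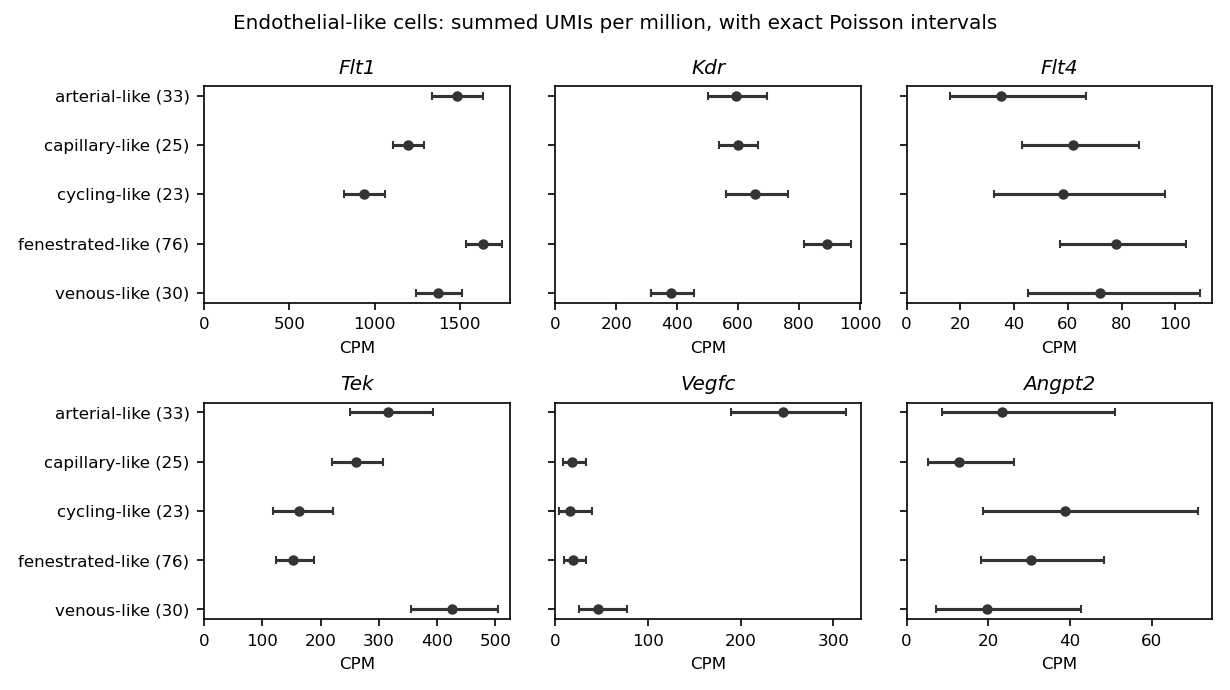
CPM (horizontal axes) of the 4 receptor genes and of Vegfc and Angpt2 in 5 endothelial-like subtypes (rows, with cells), points with exact Poisson intervals. Tek is highest in venous-like cells at 425 CPM, Kdr in fenestrated-like cells at 891 CPM, and Vegfc stands apart in arterial-like cells at 246 CPM.

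Neuron-like cells were clustered again alone as well, and 7 subtypes were named from markers, while 4 clusters stayed unnamed. A further cluster of 200 shallow cells, 199 of them with at least 4 neuron markers, had stayed unnamed and lies outside the 476 neuron-like cells. Large myelinated A-fibre-like cells (60), which sense touch, had 4 of the 10 members called higher than in the other neurons, where 12.4% of 15376 genes were: Pgf (10.8 CPM, ratio 2.34), Angpt1 (15.7 CPM, ratio 3.76), Vegfc (3.06 CPM, 15 UMIs, ratio 2.41) and the receptor gene Flt4 (2.04 CPM, 10 UMIs, ratio 2.98). For Vegfc and Flt4 the lower bound was 0.936 and 0.935 without the cell with the most UMIs.

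Angpt1 differed widely between neuron subtypes. Its level was 15.7 CPM in A-fibre-like cells (12.4 to 19.6, 77 UMIs) and 13.8 CPM in C-low-threshold mechanoreceptor-like cells (10.1 to 18.6, 44 UMIs), both neurons of light touch. It was 7.24 CPM in Trpm8 cold-sensing-like cells, 2.49 in Mrgpra3 pruriceptor-like, 2.00 in peptidergic nociceptor-like and 1.44 in Mrgprd non-peptidergic nociceptor-like cells, and 0 in 25 Sst or Nppb pruriceptor-like cells, which allows up to 1.44 CPM. The C-low-threshold ratio was 2.76 (1.93 to 3.88), the 1 member called higher there, where 3.58% of genes were. In the itch and pain subtypes no interval reached those of the 2 touch subtypes. In peptidergic nociceptor-like cells Angpt1 was the 1 member called lower (0.305), where 7.49% of genes were.

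Vegfa was highest in peptidergic nociceptor-like cells, pain neurons that release Calca and Tac1 peptides, with 36.9 CPM (32.0 to 42.4, 203 UMIs in 57 of 63 cells). Its ratio was 2.06 (1.74 to 2.43), near the limit, and 2.01 without the top cell. Trpm8 cold-sensing-like cells had 33.0 CPM, Sst or Nppb pruriceptor-like cells 27.4, C-low-threshold mechanoreceptor-like cells 25.5, A-fibre-like cells 17.3, Mrgprd non-peptidergic nociceptor-like cells 13.7 and Mrgpra3 pruriceptor-like cells 9.03 (6.04 to 13.0). Mrgpra3 pruriceptor-like cells were called lower for 2 members, Vegfa (0.405) and Angpt1 (0.403), where 14.5% of genes were. No neuron subtype reached the interval of satellite glia-like cells (52.9 to 67.3). Pgf was high in the same peptidergic subtype, at 11.8 CPM (ratio 2.75), so 2 members were called higher there, where 6.91% of genes were.

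Vegfb was seen in every subtype. It had 155 CPM in A-fibre-like cells, 153 in Trpm8 cold-sensing-like, 106 in peptidergic nociceptor-like, 105 in Mrgpra3 pruriceptor-like, 101 in C-low-threshold mechanoreceptor-like and 87.2 in Mrgprd non-peptidergic nociceptor-like cells. The lowest was the Sst or Nppb pruriceptor-like subtype, at 48.0 CPM (39.1 to 58.4), a ratio of 0.430 (0.349 to 0.524). That subtype was called lower for 3 members, Vegfb, Pgf and Angpt1, where 11.1% of genes were. Mrgprd non-peptidergic nociceptor-like cells were also lower for 3, Pgf (0.114), Angpt1 (0.202) and Angpt2 (0.0769, 0.00190 to 0.451, on 1 UMI), where 19.7% were.

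Receptor genes stayed near 0 in neurons. Tek was called higher in Mrgpra3 pruriceptor-like cells, at 2.49 CPM on 8 UMIs in 5 of 27 cells (ratio 3.35, 1.29 to 7.75), the 1 member there, where 3.32% of genes were. Endothelial-like cells had 204 CPM. Flt1 had no UMI in 4 of the 7 subtypes, which allows up to 0.934 to 1.44 CPM.

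**Figure D5:**
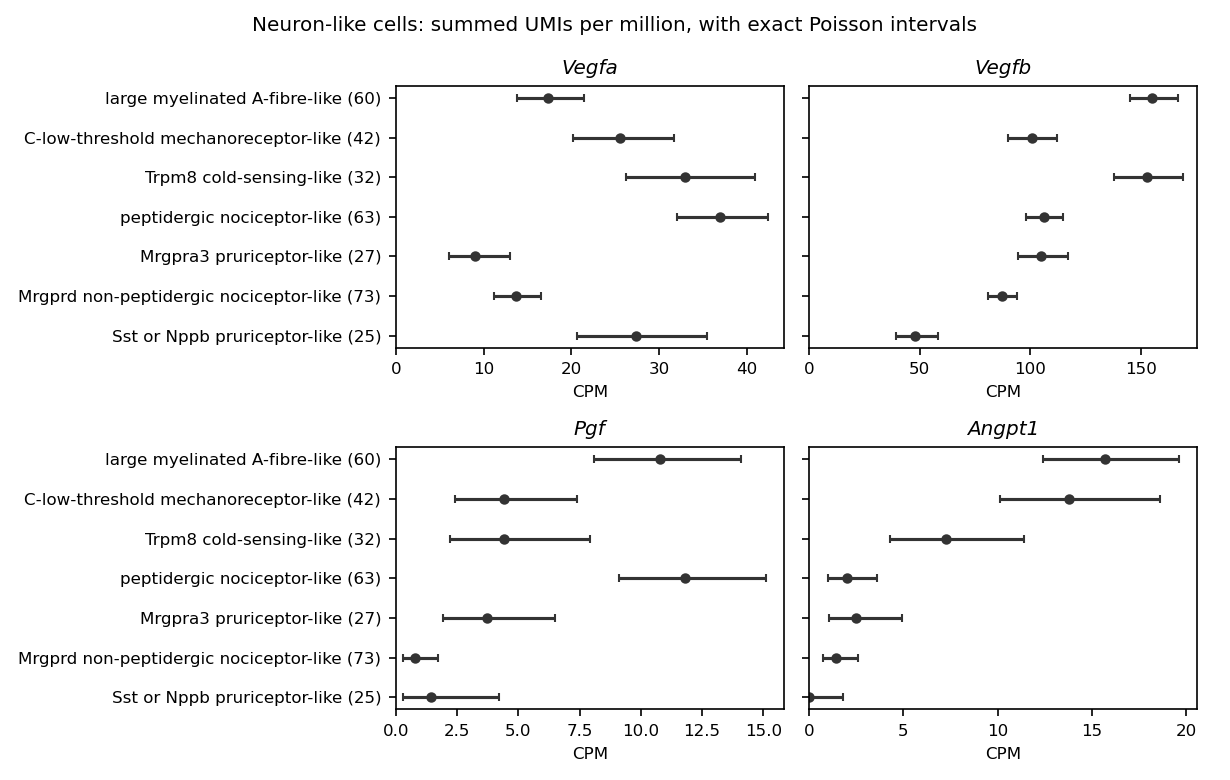
CPM (horizontal axes) of Vegfa, Vegfb, Pgf and Angpt1 in 7 neuron-like subtypes (rows, with cells), points with exact Poisson intervals. Angpt1 is highest in the 2 touch subtypes (15.7 and 13.8 CPM), Vegfa in peptidergic nociceptor-like cells (36.9 CPM), and Vegfb is lowest in Sst or Nppb pruriceptor-like cells (48.0 CPM).

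Partner genes, which encode co-receptors, processing proteins and further ligands of the family, were split between the classes. In endothelial-like cells 4 of 12 were higher and 3 lower, with a median log2 ratio of -0.09 against -0.16 over all genes (log2 ratios are of CPM + 1). Of all genes, 10.8% were called higher and 17.4% lower there. Tie1, the sister receptor of Tek, had 220 CPM against 1.70 CPM (ratio 129), and Ptprb, a phosphatase that restrains Tek, 441 against 3.52 CPM (ratio 125). The neuropilin co-receptor genes Nrp1 (4.29) and Nrp2 (2.05) were less restricted: Nrp2 had 471 CPM in cartilage- or bone-like cells against 246 in endothelial-like cells. Angptl2 (0.237) and Svep1 (0.212) were lower in endothelial-like cells.

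Fibroblast- or perineurial-like cells were higher for 8 of the 12 partner genes and lower for 1, with a median log2 ratio of 1.20 against -0.08 over all genes. Of all genes, 16.0% were called higher and 21.7% lower in this class. The highest ratios were of Angptl1 (26.3), Svep1 (23.6), an extracellular matrix gene of lymphatic development, Angptl4 (4.92) and Vegfd (3.99), a further Flt4 ligand gene. Ptprb (0.107) was lower. In mural-like cells Nrp1 (2.81) and Angptl2 (2.78) were higher and 2 genes lower, Nrp2 (0.497) and Angptl1, which had no UMI there (median log2 ratio 0.22 against -0.24). Satellite glia-like cells had 2 higher, Adamts3 (3.56), which encodes a protease that processes VEGF-C, and Angptl4 (3.36), and 6 lower, among them Ccbe1 with no UMI and Svep1 with 1 (median -0.83 against -0.21).

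Central astrocyte-like cells were higher for 3 partner genes, Ccbe1 (3.90), Svep1 (3.03) and Adamts3 (2.92), and lower for 5, among them Tie1 with no UMI and Ptprb with 1 (median log2 ratio -0.95 against -0.15). Cartilage- or bone-like cells were higher for 5, led by Ccbe1 (9.97), Nrp2 (4.48), Angpt4 (3.95) and Angptl4 (3.43), and lower for 2, Tie1 (0.0927) and Ptprb (0.126) (median 0.00 against -0.37). Ccbe1 encodes a cofactor in the processing of VEGF-C. Neuron-like cells had no partner gene higher and 7 lower, where 20.7% of all genes were called higher and 34.6% lower. The lowest ratios there were for Tie1 (0.0132) and Angptl1 (0.0407). In central astrocyte-like cells 10.0% of all genes were called higher and 13.2% lower, and in cartilage- or bone-like cells 6.58% and 28.1%.

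Of 14 endothelial regulators, transcription factors and signalling genes of vessels, 13 were higher in endothelial-like cells and none lower, with a median log2 ratio of 3.78 against -0.16. Sox17 (600), Sox7 (549) and Sox18 (358), of 1 transcription factor family, and the Notch ligand gene Dll4 (178) had the highest ratios. The ETS factor genes Erg (63.8), Fli1 (22.8) and Ets1 (12.9) were also higher. Rcan1, a calcineurin target gene that VEGF-A is known to induce, had a ratio of 0.970. In mural-like cells 3 were higher, Dll4 (11.8), Ets1 (7.04) and Mef2c (3.89), and 1 lower, Sox7, with no UMI (median 0.04 against -0.24), and in neuron-like cells 1 was higher, Nos3 (2.57), and 11 lower, down to Sox17 (0.00976) and Sox7 (0.0310). In fibroblast- or perineurial-like cells 3 regulators were higher and 7 lower (median log2 ratio -1.09), where 21.7% of all genes were called lower. In satellite glia-like cells 1 was higher and 9 lower (median -1.40), where 20% of all genes were lower. In central astrocyte-like cells 0 were higher and 9 lower (median -1.57), where 13.2% were lower. In cartilage- or bone-like cells 3 were higher and 7 lower (median -0.45), where 28.1% were lower. In mural-like cells, with 1 regulator lower, 11.7% of all genes were lower.

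Hypoxia response genes, of the pathway that raises Vegfa in low oxygen, were mixed in direction in the 2 classes highest in Vegfa. Satellite glia-like cells had 4 of 16 higher, Epas1 (11.1), which encodes an oxygen-regulated transcription factor, Ndrg1 (5.41), the glucose transporter gene Slc2a1 (3.56) and Egln3 (2.74), and 2 lower, Bnip3 (0.337) and Ldha (0.379), with a median log2 ratio of 0.41 against -0.21. Fibroblast- or perineurial-like cells had 3 higher, Adm (9.43), Egln3 (5.76) and P4ha1 (2.09), and 1 lower, Bnip3 (0.399) (median 0.03 against -0.08). Endothelial-like cells, with less Vegfa, had 5 higher, led by Epas1 (19.1), Slc2a1 (13.6), Adm (7.37) and Ankrd37 (6.31), and 1 lower, Bnip3 (0.328) (median 0.32 against -0.16). Mural-like cells had Epas1 (12.4) and Ankrd37 (3.59) higher and Bnip3 (0.399) lower. Neuron-like cells had Bnip3 (5.38) higher and 7 lower, with Adm (0.0530) and Ndrg1 (0.153) the lowest (median -0.64 against -0.20), near the 34.6% of all genes called lower there. Central astrocyte-like cells had 1 higher, Vhl (2.01), and 3 lower, and cartilage- or bone-like cells 2 higher, P4ha1 (3.70) and Ankrd37 (3.23), and 3 lower. These counts, and those of the partner genes and regulators, are to be read beside the shares of all genes called in each class. For satellite glia-like cells 7.79% of all genes were called higher and 20% lower. For mural-like cells the shares were 8.0% and 11.7%. Those for the other classes named here are given with the partner genes.

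Over the 14 classes, the genes whose pattern was most like each member were found by the Pearson correlation of log2(CPM + 1), among 16084 genes. The points share 1 library and differ in depth, so the values are descriptions. For Tek the first was Tie1 (r = 0.982), for Flt4 Gpihbp1 (0.983), for Kdr Aplnr (0.975) and for Flt1 Iigp1 (0.976). Among ligands the first were Setd7 for Vegfa (0.916), Gm1673 for Vegfb (0.948), Npnt for Vegfc (0.944), A730049H05Rik for Pgf (0.911), Fank1 for Angpt1 (0.917) and Gm41556 for Angpt2 (0.934). Each receptor gene had 3 such genes at 0.905 or more.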

How the data were processed

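The deposited matrix holds raw counts of UMIs per gene and barcode, made by the authors with Cell Ranger on mm10. The version is 3.1.0 per the submitters' processing notes and 7.0.1 per the file headers, and neither source says whether introns or strand were used in counting. Kept cells were scaled to 10000 UMIs and clustered with scanpy 1.11.5 and leidenalg 0.10.2 (2000 variable genes without the members and pathway genes, 30 principal components, 20 neighbours, resolution 1). A cluster was named from at least 3 raised markers, by rules settled after the clusters had been seen. The doublet caller marked 2 of 9427 cells (0.0212%), which means that it has not worked, so doublets were not removed.

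UMIs were summed per class, with exact 95% Poisson, Clopper-Pearson and conditional binomial intervals (scipy 1.17.1). A single library of 149040354 UMIs allows no test, and cells are not replicates. Subtypes came from clustering a class again at resolution 1. Neuron-like cells used 2000 genes, 30 components and 20 neighbours. For endothelial-like cells these were 1000, 15 and 15, and for mural-like cells 1000, 10 and 20. Erythroid-like cells, the measure of free RNA, held a median of 0.170% of the endothelial, 0.0580% of the mural and 1.49% of the neuron marker level. Other classes held more: endothelial markers stood at 3.73% of their level in mural-like and 3.49% in fibroblast- or perineurial-like cells, mural markers at 2.77% in endothelial-like cells, and neuron markers at up to 8.63%, in neutrophil- or monocyte-like cells. The satellite glia markers summed to 14688 CPM in the class of that name and to 15726 CPM in central astrocyte-like cells, so that list alone does not separate these classes.

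The members and lists were chosen with earlier results of these data known. Every member is described, and from each list up to 4 genes called higher and 2 called lower in a class are named, by the size of their ratio. Like genes are the first by correlation over genes with at least 100 UMIs. The calls were also run on simulated counts with counting error alone, the same error that the intervals cover. Such a run could not show how doublets, free RNA or differences between cells affect the calls, so no conclusion is drawn from it. Alternatives were other cell filters, doublet scores, scalings, gates, clusterings and limits. Gene positions are from GENCODE vM21, which matched 32158 of 32285 gene IDs. The molar libraries were not analysed here.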

Additional observations from a re-analysis of the deposited data

How the results depend on the processing

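The 4 receptor genes were called higher in endothelial-like cells under every alternative run. The neuron ligand count of 1 was 3 by UMIs per cell, 0 at a ratio of at least 3 and 2 against glia-like classes alone, a comparison added after seeing the data. The count over peripheral glia, 3, was 1 in cells gated singly and 1 at a ratio of at least 3, with Pgf the gene left in both. The mural count ranged from 2 to 4. The share of endothelial-like cells with at least 2 receptor genes, 91.1% at 5000 UMIs, was 72.3% at 2000. The highest-class ratios ranged from 295 to 661 for Flt1, 235 to 488 for Kdr, 70.0 to 158 for Flt4, 101 to 207 for Tek, 4.41 to 16.2 for Pgf, 13.7 to 23.2 for Angpt1, 7.95 to 18.0 for Vegfc, 1.53 (by UMIs per cell, with an interval of 0.988 to 2.27 that includes 1) to 3.83 for Angpt2, 1.88 to 3.14 for Vegfa and 1.80 to 2.98 for Vegfb. The causes of these shifts were not tested.

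No paired analysis was possible because the ganglion is a single library with no group to pair it with. Depth limits what can be said of Flt4, with 250 UMIs, of mural-like cells (87) and of the subtypes, some of 23 to 33 cells. Variation between mice cannot be measured in 1 library, and doublets remain in it.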

Other observations

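Angpt1 was also high in clusters that stayed unnamed. A cluster of 95 cells led by Aspn, Mecom and Omd had 105 CPM of Angpt1 (87.9 to 124, 137 UMIs), and a cluster of 170 cells led by Dcc, Igfbpl1 and Gh had 77.8 CPM on 160 UMIs with 24.8 CPM of Vegfc and 12.2 CPM of Kdr. In the latter, 144 cells held at least 4 neuron markers.

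A mixed cluster of 74 cells held mast cell and platelet genes. Its 13 cells with at least 4 platelet markers, such as Ppbp and Itga2b, had 372 CPM of Angpt1 (57 UMIs) and 150 CPM of Flt1 (23 UMIs). Its 24 cells with at least 4 mast cell markers had 34.7 CPM of Angpt1 and no UMI of Flt1. These cells were split by markers after the cluster had been seen. The unnamed clusters entered only the alternative that counts them among the other cells, where the Angpt1 ratio was 13.7 and the Flt1 ratio 398. A shallow cluster of 200 cells led by Reg3b, Trappc3l and Thy1 (median 2660 UMIs) had 93.5 CPM of Vegfb (78.7 to 110), 17.2 CPM of Vegfa and 11.3 CPM of Pgf, and 199 of its cells held at least 4 neuron markers. A cluster of 80 cells led by Otor, Npy and Tectb had 30.3 CPM of Angpt2.

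Within the mural-like class, the 28 smooth muscle-like cells had 146 CPM of Pgf (101 to 204), 1.90 times the other mural-like cells. In the fibroblast- or perineurial-like class, the 92-cell cluster led by Ptgds, Vtn and Slc6a20a had 81.0 CPM of Angpt1, 46.1 CPM of Angpt2 and 44.8 CPM of Flt1. Its 17 cells with Flt1 held endothelial markers at 303 CPM in sum (104 UMIs), with 3 of the 9, Pecam1, Esam and Ly6c1, at 0, and no UMI of Kdr. The part of endothelial RNA in this Flt1 was not tested.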
